A study of Danio rerio with 24 samples.

Results

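The comparison described here sets regenerating larval zebrafish caudal fin at 1 day post amputation (dpa) against unamputated larval caudal fin, in 6 of the 24 arrays of a series on larval and adult fin regeneration. Its arrays were chosen by their labels alone: the 3 titled as controls at 1 dpa and the 3 titled as unamputated caudal fin at 2 days post fertilization (dpf). All fish were of the AB strain, with no transgene, mutation or drug stated for either group. Fins were cut at 2 dpf, and each replicate pooled 150 larval fins, of which 100 ng of RNA was labelled in a kit with a second round of amplification. The unamputated fins were taken at 2 dpf, the age at which the others were cut, so the 1 dpa larvae were a day older and no unamputated fin of their own age is analysed here. Amputation and a day of development cannot be told apart in any value below. The other larval groups, fin at 2 and 3 dpa from larvae kept in the vehicle DMSO, and adult male fins from pools of 10 fish, unamputated or at 1 dpa after injection of vehicle liposomes, enter only where named. Adult RNA (2.5 µg) was labelled with a kit of a single round. The source names number all 6 larval arrays as replicate 1, and the titles' numbers 1 to 3 are used.

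After a larval fin fold is cut, epidermis closes over the stump, leukocytes gather at the wound, and proliferating cells below the wound epidermis, the blastema, rebuild the fold. Retinoic acid, Fgf, Wnt and activin signalling are known to act in the adult and larval blastema, and macrophages and neutrophils are known to arrive at larval wounds within hours. Larval fin folds hold epidermis, sparse mesenchyme, nerve endings and, near the tail tip, notochord, muscle and vessels. The series title asks how larval and adult regeneration compare, and the contrast at 1 dpa gives the earliest larval point.

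Values are log2 of the deposited ratio, in which 0 is each probe set's own reference, so a difference between arrays can be read but the level of one probe set cannot be set against another's, and a marker's absolute presence cannot be judged. Changes are given as log2 differences with the standard error of a linear model over the 12 larval arrays (limma) and a Benjamini-Hochberg adjusted p over 15502 probe sets. A change is called, and a gene is said to rise or fall, at an adjusted p under 0.05 and at least 2-fold (1 on the log2 scale). The 3 arrays a group limit the precision, and an exact permutation test of 3 against 3 cannot go below p = 0.10. Levels within the unamputated group correlated across probe sets at 0.904 to 0.929, within the 1 dpa group at 0.793 to 0.902, and between the groups at 0.676 to 0.732.

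At 1 dpa, 377 probe sets were higher (2.43% of 15502) and 245 were lower (1.58%). In 617 of these 622 the 3 arrays of one group all lay beyond the 3 of the other, against 15.6% of all probe sets with no overlap upwards and 16.3% downwards. The calls rest on these same arrays, so separation is favoured by the choice and adds no support. The same holds for called genes below whose groups are said to be apart. Rises were larger than falls: 84 rises and 25 falls were at least 4-fold, and 23 rises and 5 falls at least 8-fold. The median log2 change of all probe sets was −0.03. Taking 1 probe set per gene, 220 of 8793 genes rose (2.5%) and 152 fell (1.73%), and 178 of the called probe sets had no gene symbol. The 1 dpa replicate 1 lay nearest to the unamputated arrays: it was the lowest of the 3 in 206 of the 377 rises and the highest in 118 of the 245 falls. Even so, the median difference from the unamputated mean over the rises was 1.32 in replicate 1, 1.52 in replicate 2 and 1.44 in replicate 3.

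**Figure D1:**
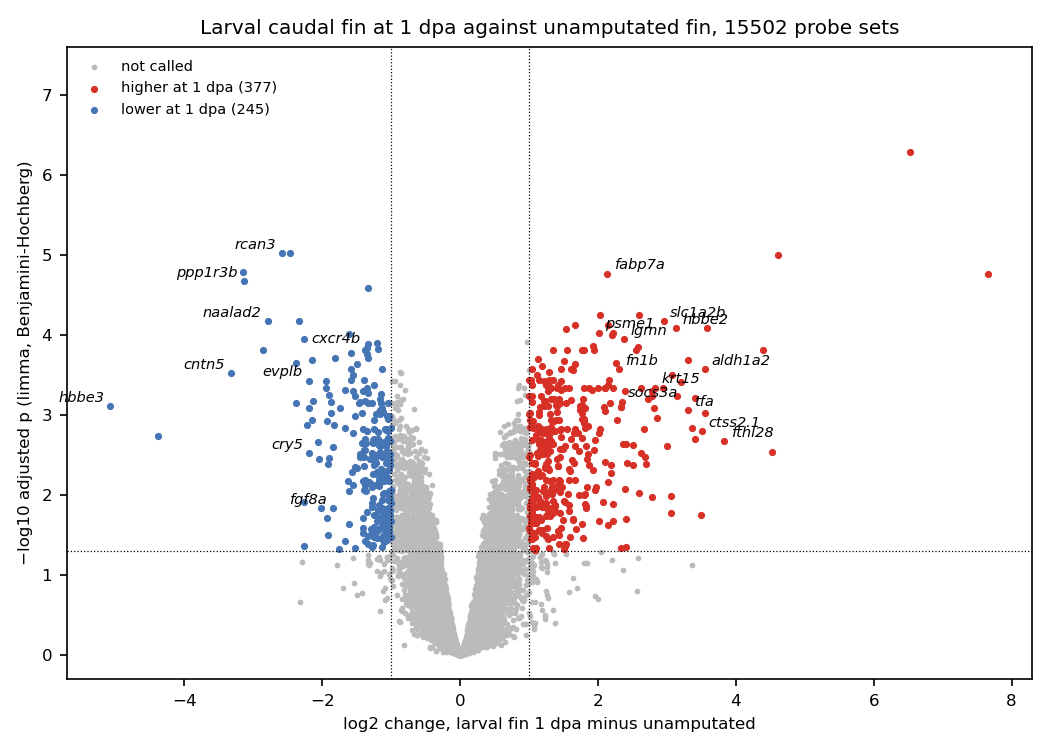
Each point is 1 of 15502 probe sets, with the log2 change at 1 dpa on the x axis and −log10 of the limma adjusted p on the y axis; dotted lines mark the 2-fold change and the adjusted p of 0.05, and red and blue points are the 377 rises and 245 falls. Rises reach further from 0 than falls, and aldh1a2, hbbe2 and slc1a2b stand among the largest named rises and hbbe3 at the far left.

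With 1 probe set per gene, the largest rise of the genes described here was in one of unknown function. The uncharacterised gene si:dkey-247k7.2 had levels of −5.01, −5.09 and −4.56 in the unamputated arrays and −1.40, −0.09 and 0.00 at 1 dpa, a change of 4.39 ± 0.41 (adjusted p = 0.00015). All 3 arrays at 1 dpa stood far above all unamputated arrays. The ferritin heavy chain-like gene fthl28, whose relatives store iron, had levels of −1.89, −1.89 and −1.31 in the unamputated arrays and 0.30, 3.26 and 2.84 at 1 dpa, a change of 3.83 ± 0.59 (adjusted p = 0.0021). Replicate 1 at 1 dpa was far below the other two but still above every unamputated array.

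The other rises of at least 8-fold among the 14 largest described here were in aldh1a2, ctss2.1, c4b, tfa, grna, hbbe2, ms4a17a.11, zgc:172053 and ctsl.1, with log2 changes from 3.01 for ctsl.1 to 3.55 for aldh1a2. The membrane-spanning 4-domain gene ms4a17a.11 changed by 3.07 ± 0.33 (adjusted p = 0.00031), with the 1 dpa levels between −0.91 and −0.66 and the unamputated ones between −4.17 and −3.63. Below them, slc1a2b, runx3 and krt15 rose by 2.96, 2.85 and 2.83 on the log2 scale. A second probe set of ctsl.1, read separately, gave a change of 7.66, so the size of that rise depends on the probe set. A probe set without a symbol rose by 6.53, from a mean level of −1.42 to 5.11, which only that ctsl.1 probe set exceeded.

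Among the falls, the embryonic beta globin gene hbbe3 had levels of 5.19, 5.41 and 4.97 in the unamputated arrays and −1.28, 2.09 and −0.44 at 1 dpa, a change of −5.07 ± 0.65 (adjusted p = 0.00077). The contactin gene cntn5, a neuronal adhesion molecule in mammals, fell by 9.99-fold, from levels of 2.91, 3.13 and 2.79 to −0.26, −0.46 and −0.41 (adjusted p = 0.0003). The GABA transporter gene slc6a11a and rcan3, a member of the calcineurin regulator family, fell by 5.52-fold and 5.97-fold, with standard errors of 0.14 on the log2 scale. Levels of rcan3 were 2.35, 2.39 and 2.48 in the unamputated arrays and −0.44, −0.08 and 0.01 at 1 dpa, which left a wide gap between the groups. The peptidase gene naalad2 changed by −2.79 ± 0.22 (adjusted p = 6.7e-05) and the glycosyltransferase gene b3gnt3.1 by −2.19 ± 0.28 (adjusted p = 0.00081). The remaining falls of the set, in ppp1r3b, cldn3d, agr2, si:ch211-76l23.4, cry5, evplb, slc25a55b, zgc:158846 and anxa1c, ran from −3.13 to −1.95, each without overlap between the groups. The call of agr2 was not stable: leaving out any of 5 of the 6 arrays ended the call, with changes of −2.65 to −1.66 and a highest adjusted p of 0.13.

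**Figure D2:**
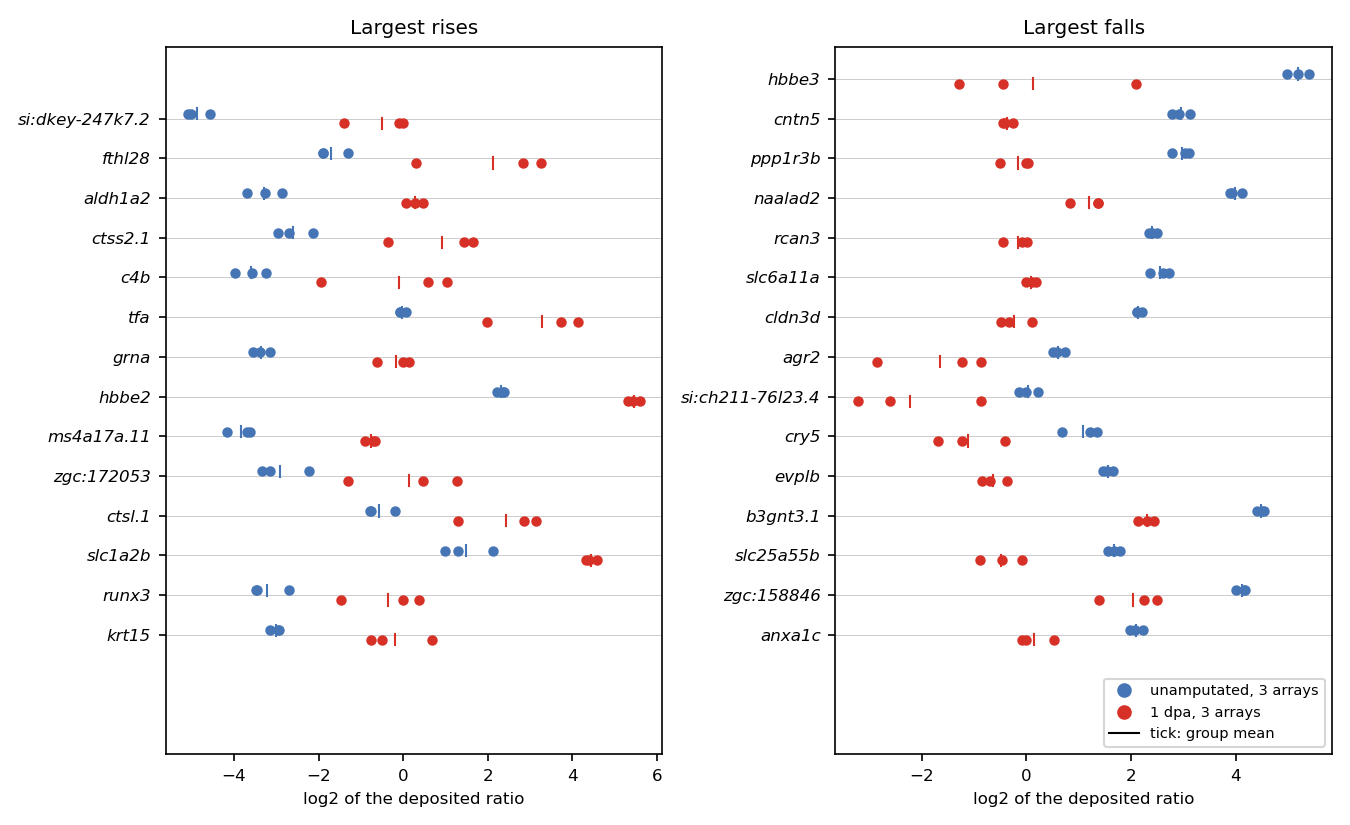
Log2 level of 14 genes with the largest rises (left) and 15 with the largest falls (right), with the 3 unamputated arrays as blue points, the 3 arrays at 1 dpa as red points and ticks at the group means; the rule that chose these genes required groups that do not overlap. For fthl28, ctss2.1, c4b and tfa, replicate 1 at 1 dpa is the lowest red point, between the other red points and the blue ones.

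Genes of macrophages and of the lysosome were the clearest group to rise. Of 13 macrophage and microglia genes measured, 6 rose and none fell, with a list median of 0.38. Of 31 lysosome and phagosome genes, 11 rose and none fell, with a median of 0.77 and 29 of 31 changes above 0. The corresponding shares over all genes were 2.5% for rises and 1.73% for falls, and the median change of all genes was −0.01. In RNA of whole fins, more cells of a type and more RNA per cell cannot be told apart.

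The scavenger receptor gene marco, expressed by macrophages, had levels of −2.03, −2.06 and −2.59 in the unamputated arrays and 0.00, 0.89 and 0.79 at 1 dpa, a change of 2.79 ± 0.33 (adjusted p = 0.00051). The groups did not overlap, and the same held for slc7a7, a cationic amino acid transporter gene needed for microglia in zebrafish, which changed by 2.68 ± 0.45 (adjusted p = 0.0033). The leukocyte genes lcp1, an actin bundler, and ptprc, the phosphatase CD45, rose by 2.14 and 1.54. The galectin gene lgals9l1 and the apolipoprotein gene apoeb rose by 1.25 and 1.03. In the remaining 7 macrophage genes no change was called, among them the receptor gene csf1ra at 0.37 ± 0.15 (adjusted p = 0.12), with overlapping groups, and coro1a at −0.35. The count of 6 fell to 3 without unamputated replicate 3. A filter that kept probe sets with a ratio of at least 1 in 3 arrays left 2 of the 6, both still called. It removed the probe sets of the others, which were then not tested. Single arrays also ended calls of lcp1 and ptprc: changes without 1 array ran over lcp1 1.74 to 2.73 (highest adjusted p = 0.092, 4 of 6 arrays), ptprc 1.21 to 2.1 (highest adjusted p = 0.15, 5 of 6 arrays) and apoeb 0.98 to 1.1 (highest adjusted p = 0.028, 1 of 6 arrays).

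Of the 9 neutrophil genes only ncf1, which encodes a subunit of the phagocyte oxidase that macrophages also carry, rose. Its levels were −0.11, −2.05 and −1.76 in the unamputated arrays and −0.51, 1.74 and 1.84 at 1 dpa, and unamputated replicate 1 lay above 1 dpa replicate 1. The neutrophil lysozyme gene lyz had levels of 5.23, 3.78 and 2.94 in the unamputated arrays and 1.69, 3.07 and 2.1 at 1 dpa, a change of −1.69 ± 0.70 (adjusted p = 0.14) that was not called. The 4 probe sets of mpx, the neutrophil peroxidase, did not move alike: the chosen one gave −0.26 ± 0.16, and the others −0.08, 0.70 and 1.42, of which the last was called. None of 4 lymphocyte genes was called by limma at an adjusted p under 0.05 and 2-fold (1 of 4 at an unadjusted p under 0.05). The call of ncf1 ended without any of 4 arrays (changes 1.92 to 3.1, highest adjusted p = 0.15), with the replicate block (adjusted p = 0.062) and on the 6 arrays alone (adjusted p = 0.093).

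In the lysosome list, the rises included 8 cathepsin genes, which encode lysosomal proteases. The cathepsin S gene ctss2.1 had levels of −2.12, −2.96 and −2.71 in the unamputated arrays and −0.36, 1.64 and 1.45 at 1 dpa, a change of 3.50 ± 0.51 (adjusted p = 0.0016). For lgmn, the lysosomal protease legumain, levels were −2.36, −2.31 and −2.21 in the unamputated arrays and −0.49, 0.28 and 0.47 at 1 dpa, a change of 2.38 ± 0.21 (adjusted p = 0.00011). In both genes every 1 dpa array exceeded every unamputated one, and replicate 1 was the lowest at 1 dpa. Rises were also called for ctsl.1 (3.01), ctsc (1.72), ctsba (1.46), ctsd (1.36), ctss2.2 (1.26), ctsk (1.17) and ctsla (1.1). The lysosomal membrane gene laptm5, of blood cells, changed by 2.51 ± 0.40 (adjusted p = 0.0024), and grna, which encodes a progranulin, by 3.2 ± 0.36 (adjusted p = 0.00039). Not called were the membrane genes lamp1a at 0.97 (limma adjusted p = 0.0029) and lamp2 at 0.35 and the vacuolar proton pump gene atp6v1e1b at 0.77. The same held for the cathepsin genes ctsz at 0.96, ctsa at 0.63 and ctss1 at 0.28. Changes without 1 array ran over ctsk 0.94 to 1.40 (highest adjusted p = 0.067, 4 of 6 arrays) and ctsla 1.04 to 1.17 (highest adjusted p = 0.064, 3 of 6 arrays).

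Over the macrophage, neutrophil, myeloid regulator and lysosome lists together, 20 of 63 genes rose and none fell, and in 16 of the 20 replicate 1 was the lowest 1 dpa array. With no minimum fold, 1 macrophage gene was lower, apoc1 at −0.79 ± 0.20 (limma adjusted p = 0.027). So was 1 myeloid regulator, arhgdig at −0.67 ± 0.12 (limma adjusted p = 0.0058). By that rule 4 myeloid regulators and 18 lysosome genes were higher. The myeloid regulators with a called rise were runx3 and cebpd, at 2.85 ± 0.39 (adjusted p = 0.0011) and 1.35 ± 0.37 (adjusted p = 0.034). For the myeloid master regulator gene spi1b the chosen probe set changed by 0.88 ± 0.25 (adjusted p = 0.038), under the 2-fold limit, and another probe set of it by 2.41. A second probe set of runx3 changed by 0.47 and one of cebpd by −0.33, neither of them called. Of genes singled out after their values were seen, the macrophage glycoprotein gene cd68 had levels of −3.11, −3.44 and −3.26 in the unamputated arrays and −1.52, 0.00 and 0.16 at 1 dpa, a change of 2.81 ± 0.37 (adjusted p = 0.00081). The acid phosphatase gene acp5a, a marker of osteoclasts and activated macrophages, and the blood cell gene gmfg rose by 2.42 and 2.67. The 3 macrophage markers measured (marco, csf1ra, lcp1) averaged −1.62 to −1.19 in unamputated fin and −0.23 to 0.71 at 1 dpa, without overlap. The 2 neutrophil markers (mpx, lyz) averaged 1.70 to 2.60 in unamputated fin and 0.82 to 1.49 at 1 dpa, lower without overlap. Neither gene was called, at −0.26 for mpx and −1.69 for lyz, and another probe set of mpx was called higher, at 1.42. Over all probe sets, 15.6% had no overlap upwards and 16.3% downwards. The rise of cebpd ended without any of 4 arrays (changes 1.1 to 1.67, highest adjusted p = 0.11).

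In the interferon list 3 of 11 genes rose and none fell, with a median of 0.60. The 3 rises became 1 with quantile normalization or with ratios floored at 0.25, and 0 with 0.5 added before log2. The filter on low ratios removed the probe sets of all 3, so it did not test them. The beta-2-microglobulin gene b2m, the light chain of MHC class I, had levels of −2.21, −1.68 and −2.23 in the unamputated arrays and −0.71, 0.29 and −0.17 at 1 dpa, a change of 1.84 ± 0.32 (adjusted p = 0.0035). The transcription factor gene irf1b changed by 2.01 ± 0.49 (adjusted p = 0.021), and psmb10, an interferon-inducible catalytic subunit of the immunoproteasome, by 1.23 ± 0.20 (adjusted p = 0.0027). The groups were apart in all 3 genes. The proteasome list gave 3 rises of 36, in psme1, psme2 and psma6l. The genes psme1 and psme2 encode the interferon-inducible proteasome activator, with psme1 levels of −3.04, −2.95 and −2.70 in the unamputated arrays and −0.60, −0.91 and −1.15 at 1 dpa and changes of 2.01 ± 0.17 (adjusted p = 9.3e-05) and 1.54 ± 0.19 (adjusted p = 0.0007). The standard proteasome subunits moved little, with psmb5 at 0.34 and psmd1 at 0.35, and the list median was 0.35. The antiviral genes isg15 and mxa were not called, at 0.84 and −0.03. Also uncalled in the interferon list were psmb8a at 0.57 ± 0.23 (adjusted p = 0.13), psmb9a at −0.01 ± 0.18 (adjusted p = 0.99) and irf1a at −0.01 ± 0.09 (adjusted p = 0.97). In that list 8 of 11 changes were above 0. The Stat-interacting gene nmi, singled out after its values were seen and interferon-inducible in mammals, changed by 2.56 ± 0.24 (adjusted p = 0.00015). Without single arrays irf1b ran over 1.79 to 2.34 (highest adjusted p = 0.08, 4 of 6 arrays) and psma6l over 0.96 to 1.43 (highest adjusted p = 0.047, 1 of 6 arrays).

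Among 20 complement and coagulation genes, c4b and tfa rose. The complement component gene c4b had levels of −3.98, −3.24 and −3.58 in the unamputated arrays and −1.94, 1.04 and 0.58 at 1 dpa, a change of 3.50 ± 0.82 (adjusted p = 0.018). The iron carrier gene tfa, made mainly by liver, had levels of 0.07, −0.07 and −0.06 in the unamputated arrays and 1.99, 4.13 and 3.73 at 1 dpa, a change of 3.30 ± 0.43 (adjusted p = 0.00086). In both, 1 dpa replicate 1 lay well below the other 1 dpa arrays and above all unamputated ones. The other 18 genes of the list were not called. Among them cfd changed by 2.05 ± 0.62 (limma adjusted p = 0.052), and the liver plasma protein genes fga, fgb and apoa2 by −0.05, −0.08 and −0.43. None of 14 iron and heme genes was called by limma (5 had an unadjusted p under 0.05), including the ferritin gene fth1a at −0.15, although fthl28 rose. Leaving out any of 4 arrays ended the call of c4b (changes 2.92 to 4.42, highest adjusted p = 0.071).

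Immediate early and stress response transcription factors formed another group of rises. Of 24 AP-1 and immediate early genes, 6 rose (25%, against 2.5% of all genes) and none fell, with a median of 0.65. The AP-1 subunit gene junba had levels of −2.72, −4.27 and −3.65 in the unamputated arrays and −1.66, −1.13 and −1.29 at 1 dpa, a change of 2.18 ± 0.39 (adjusted p = 0.0042), and fosl2 had levels of −1.76, −2.47 and −1.88 in the unamputated arrays and −1.26, 0.00 and 0.34 at 1 dpa, a change of 1.73 ± 0.36 (adjusted p = 0.0099). The groups of both were apart. The paralogue of junba, junbb, rose by 1.57, the Krüppel-like factor genes klf2a and klf9 by 1.35 and 1.44, and the growth arrest gene gadd45ba by 1.1. Another probe set of gadd45ba changed by 0.91 ± 0.44 (adjusted p = 0.21) with overlapping groups, and others of fosl2 by 1.95 and 1.82, both called. The injury-induced factor gene atf3 had levels of −0.12, −0.63 and −0.52 in the unamputated arrays and −0.33, 0.93 and 1.22 at 1 dpa, a change of 1.03 ± 0.39 (adjusted p = 0.11) with overlapping groups. For fosab, the chosen probe set changed by 0.15 ± 0.43 (adjusted p = 0.9). Others of fosab changed by 1.25, which was called, and by 0.96 and 0.08, which were not. The gene egr1 changed by 0.62 ± 0.37 (adjusted p = 0.32). The count of 6 fell to 3 without unamputated replicate 2. It fell to 1 with quantile normalization, where klf2a read −0.018, and to 0 with 0.5 added before log2. Changes without 1 array ran over junbb 1.40 to 1.87 (highest adjusted p = 0.063, 4 of 6 arrays), klf9 1.03 to 1.84 (highest adjusted p = 0.13, 5 of 6 arrays) and gadd45ba 0.76 to 1.42 (highest adjusted p = 0.071, 5 of 6 arrays).

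The cytokine list split in both directions, with 2 of 24 genes higher and 3 lower, and 5 were higher without unamputated replicate 1 or without 1 dpa replicate 1. Of the feedback inhibitors of Jak and Stat signalling, both socs3 paralogues rose, while socs1a changed by −0.37 without a call: socs3a had levels of −2.93, −3.89 and −3.99 in the unamputated arrays and −1.38, −0.97 and −1.42 at 1 dpa, a change of 2.35 ± 0.29 (adjusted p = 0.00068), and socs3b changed by 2.18 ± 0.28 (adjusted p = 0.0007). The 1 dpa arrays of both stood apart from the unamputated ones, while stat3, which induces socs3, changed by 0.53 ± 0.16 (adjusted p = 0.056). The Cxcl12 receptor genes fell: cxcr4a had levels of 0.03, 0.08 and 0.22 in the unamputated arrays and −1.06, −2.0 and −2.08 at 1 dpa, a change of −1.83 ± 0.26 (adjusted p = 0.0013), and cxcr4b had levels of −0.02, −0.22 and 0.19 in the unamputated arrays and −1.32, −1.41 and −1.38 at 1 dpa, a change of −1.36 ± 0.12 (adjusted p = 0.00014). The prostaglandin synthase gene ptgs2a, also called cyclooxygenase, fell by 2.09-fold (adjusted p = 0.0036). Its call ended without 1 dpa replicate 2 alone, where the change was −0.90. The ligand genes cxcl12a and cxcl12b changed by 0.57 and −0.69, and neither was called.

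Of 18 glucocorticoid response genes, klf9, cebpd and socs3a rose, klf9 being also held by the immediate early list, cebpd by the myeloid list and socs3a by the cytokine list, while the receptor targets fkbp5 and tsc22d3 changed by 0.25 ± 0.57 (adjusted p = 0.86) and −0.13 ± 0.25 (adjusted p = 0.83). The count fell to 1 without unamputated replicate 2, unamputated replicate 3 or 1 dpa replicate 1. In the hypoxia and glycolysis list 3 of 32 genes rose and 1, insig1, which the sterol list also holds, fell. The pyruvate kinase gene pkma changed by 1.25 ± 0.24 (adjusted p = 0.0065), the mitophagy receptor gene bnip3 by 1.1 ± 0.23 (adjusted p = 0.011), and igfbp1a, a hypoxia-induced binding protein of insulin-like growth factors, by 1.76 ± 0.44 (adjusted p = 0.023). The hypoxia factor gene epas1a fell short of 2-fold on the chosen probe set, at −0.97 ± 0.22, and gave −1.23 and −2.34 on others, both called. Of 63 respiratory genes only cox4i2, a cytochrome oxidase isoform that hypoxia induces in mammals, was called, with levels of −2.15, −2.30 and −2.58 in the unamputated arrays and −0.19, −0.45 and −1.02 at 1 dpa and a change of 1.79 ± 0.21 (adjusted p = 0.00045). In the chaperone list hsp90b1 and pdia4, of the endoplasmic reticulum, rose by 1.05 and 1.29 out of 43 genes, while hspa5 changed by 0.42 ± 0.23 (adjusted p = 0.27). The glutathione peroxidase gene gpx1b, the 1 call of 24 oxidative stress genes, rose by 1.00. Changes without 1 array ran over igfbp1a 1.51 to 2.01 (highest adjusted p = 0.087, 4 of 6 arrays), hsp90b1 0.84 to 1.33 (highest adjusted p = 0.13, 4 of 6 arrays) and gpx1b 0.83 to 1.13 (highest adjusted p = 0.091, 4 of 6 arrays).

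In the retinoic acid list 2 of 22 genes rose and none fell. The synthesis enzyme gene aldh1a2 had levels of −3.27, −2.87 and −3.70 in the unamputated arrays and 0.46, 0.29 and 0.07 at 1 dpa, an 11.7-fold rise (3.55 ± 0.37, adjusted p = 0.00027). The 6 arrays fell into tight and distant groups. The reductase gene dhrs3a, which returns retinal to retinol, had levels of −0.17, −0.53 and −0.33 in the unamputated arrays and 0.35, 1.61 and 1.24 at 1 dpa, a change of 1.41 ± 0.28 (adjusted p = 0.0076). The degradation enzyme gene cyp26a1 had levels of −1.84, −1.69 and −1.31 in the unamputated arrays and −1.99, 0.40 and 0.00 at 1 dpa, a change of 1.09 ± 0.53 (adjusted p = 0.22), with 1 dpa replicate 1 below every unamputated array. For cyp26b1 the chosen probe set changed by 0.69 ± 0.22 (adjusted p = 0.061) and others by 0.45, 1.27 and 1.80, with the last pair called. The retinoic acid receptor genes and the cellular binding protein genes were not called, from −0.40 for rarab to 0.24 for crabp2b, and rbp4, which carries retinol in plasma, changed by 0.68 without a call. Without 1 dpa replicate 1, 4 genes of the list rose.

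The blastema list of 24 genes gave 3 rises, in aldh1a2, junba and junbb, and 2 falls, in msx1b and wnt5b. The homeobox gene msx1b, a marker of the distal blastema, had levels of 0.67, 0.20 and 0.80 in the unamputated arrays and −0.51, −0.82 and −0.74 at 1 dpa, a change of −1.25 ± 0.19 (adjusted p = 0.002). For mdka, the growth factor midkine that rises in adult fin regenerates, the change was −0.13 ± 0.12 (adjusted p = 0.53) with overlapping groups. The activin subunit gene inhbaa had a change of −0.97 ± 0.21 (adjusted p = 0.012) on the chosen probe set, under the 2-fold limit, and −1.15 on another, which was called. The Wnt effector gene lef1 changed by 0.07 ± 0.43 (adjusted p = 0.95), and igf2b by 0.93 without a call. With unamputated replicate 1 or 1 dpa replicate 3 left out, 1 of the 2 falls was called, and wnt5b lost its call without any of 3 arrays (changes −1.65 to −1.14, highest adjusted p = 0.08).

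The ligand genes of the Fgf, Bmp and Wnt lists with a called fall were fgf8a, bmp4, bmp2b and wnt5b, while others such as fgf10a at 0.36, bmp5 at 0.42 and wnt11 at 0.94 were not called. In the Fgf list 2 of 24 genes fell and none rose. The ligand gene fgf8a had levels of 2.36, 2.17 and 2.43 in the unamputated arrays and 1.56, −0.14 and 0.00 at 1 dpa, a change of −1.84 ± 0.42 (adjusted p = 0.015). Replicates 2 and 3 at 1 dpa lay near 0, while replicate 1 lay closer to the unamputated arrays without reaching them. The Fgf carrier gene fgfbp2a fell by 2.04-fold. The median fin fold ligand gene fgf24 changed by −1.34 and was not called. No call was made for the pathway's feedback targets: dusp6 changed by −0.03 ± 0.18 (adjusted p = 0.94) and spry4 by −0.19 ± 0.32 (adjusted p = 0.79), both with overlapping groups. With quantile normalization the Fgf falls became 1. No Fgf fall was called without unamputated replicate 1, 1 dpa replicate 2 or 1 dpa replicate 3, and 1 without unamputated replicate 3. Changes then ran over fgf8a −2.39 to −1.53 (highest adjusted p = 0.059, 3 of 6 arrays) and fgfbp2a −1.21 to −0.84 (highest adjusted p = 0.098, 4 of 6 arrays).

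In the Bmp, activin and Tgfb list, bmp4 and bmp2b fell and none of 36 genes rose. Levels of bmp4 were 1.95, 1.76 and 1.49 in the unamputated arrays and 0.63, 0.00 and −0.13 at 1 dpa, a change of −1.57 ± 0.29 (adjusted p = 0.0051), and bmp2b changed by −1.27 ± 0.37 (adjusted p = 0.044) from levels of 0.57, 0.28 and −0.09 in the unamputated arrays and −0.18, −1.24 and −1.64 at 1 dpa. The groups were apart for both, though only narrowly for bmp2b. The Bmp target gene id1 changed by −0.05 ± 0.11 (adjusted p = 0.87) and tgfb1a by −0.36 ± 0.17 (adjusted p = 0.2). Only 1 fall was called with quantile normalization and only bmp4 without unamputated replicate 1, and bmp2b lost its call without any of 5 arrays (changes −1.70 to −0.97, highest adjusted p = 0.15).

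In the Wnt list 3 of 29 genes fell and 1 rose, and with quantile normalization none of either. The noncanonical ligand gene wnt5b had levels of 2.35, 1.98 and 1.42 in the unamputated arrays and 0.80, 0.73 and −0.01 at 1 dpa, a change of −1.40 ± 0.34 (adjusted p = 0.02). The Wnt inhibitor gene dkk1b, itself a Wnt target, had levels of 1.76, 1.40 and 1.28 in the unamputated arrays and 0.92, 0.00 and −0.23 at 1 dpa, a change of −1.25 ± 0.32 (adjusted p = 0.025). The groups of both were apart. The Wnt target gene sp5l changed by −1.06 ± 0.29 (adjusted p = 0.033) with unamputated replicate 2, at 0.15, inside the 1 dpa range. The secreted gene dkk3b rose, with levels of −3.19, −3.09 and −2.86 in the unamputated arrays and −0.96, −1.64 and −1.52 at 1 dpa and a change of 1.67 ± 0.24 (adjusted p = 0.0015). The target gene axin2 changed by −0.31 ± 0.13 (adjusted p = 0.14). No Wnt fall was called without unamputated replicate 1 or without 1 dpa replicate 3, and 1 without unamputated replicate 2. Changes then ran over wnt5b −1.65 to −1.14 (highest adjusted p = 0.08, 3 of 6 arrays), dkk1b −1.60 to −1.02 (highest adjusted p = 0.094, 4 of 6 arrays) and sp5l −1.43 to −0.74 (highest adjusted p = 0.1, 4 of 6 arrays). None of 33 Hedgehog and Notch genes was called by limma (7 had an unadjusted p under 0.05), with gli1 at 0.13 ± 0.13 (adjusted p = 0.58) and her6 at −0.02 ± 0.21 (adjusted p = 0.97). The growth factor gene pdgfab, a ligand of platelet-derived growth factor receptors, fell, with levels of 0.87, 0.61 and 0.76 in the unamputated arrays and 0.11, −0.65 and −1.16 at 1 dpa and a change of −1.32 ± 0.25 (adjusted p = 0.0068).

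**Figure D3:**
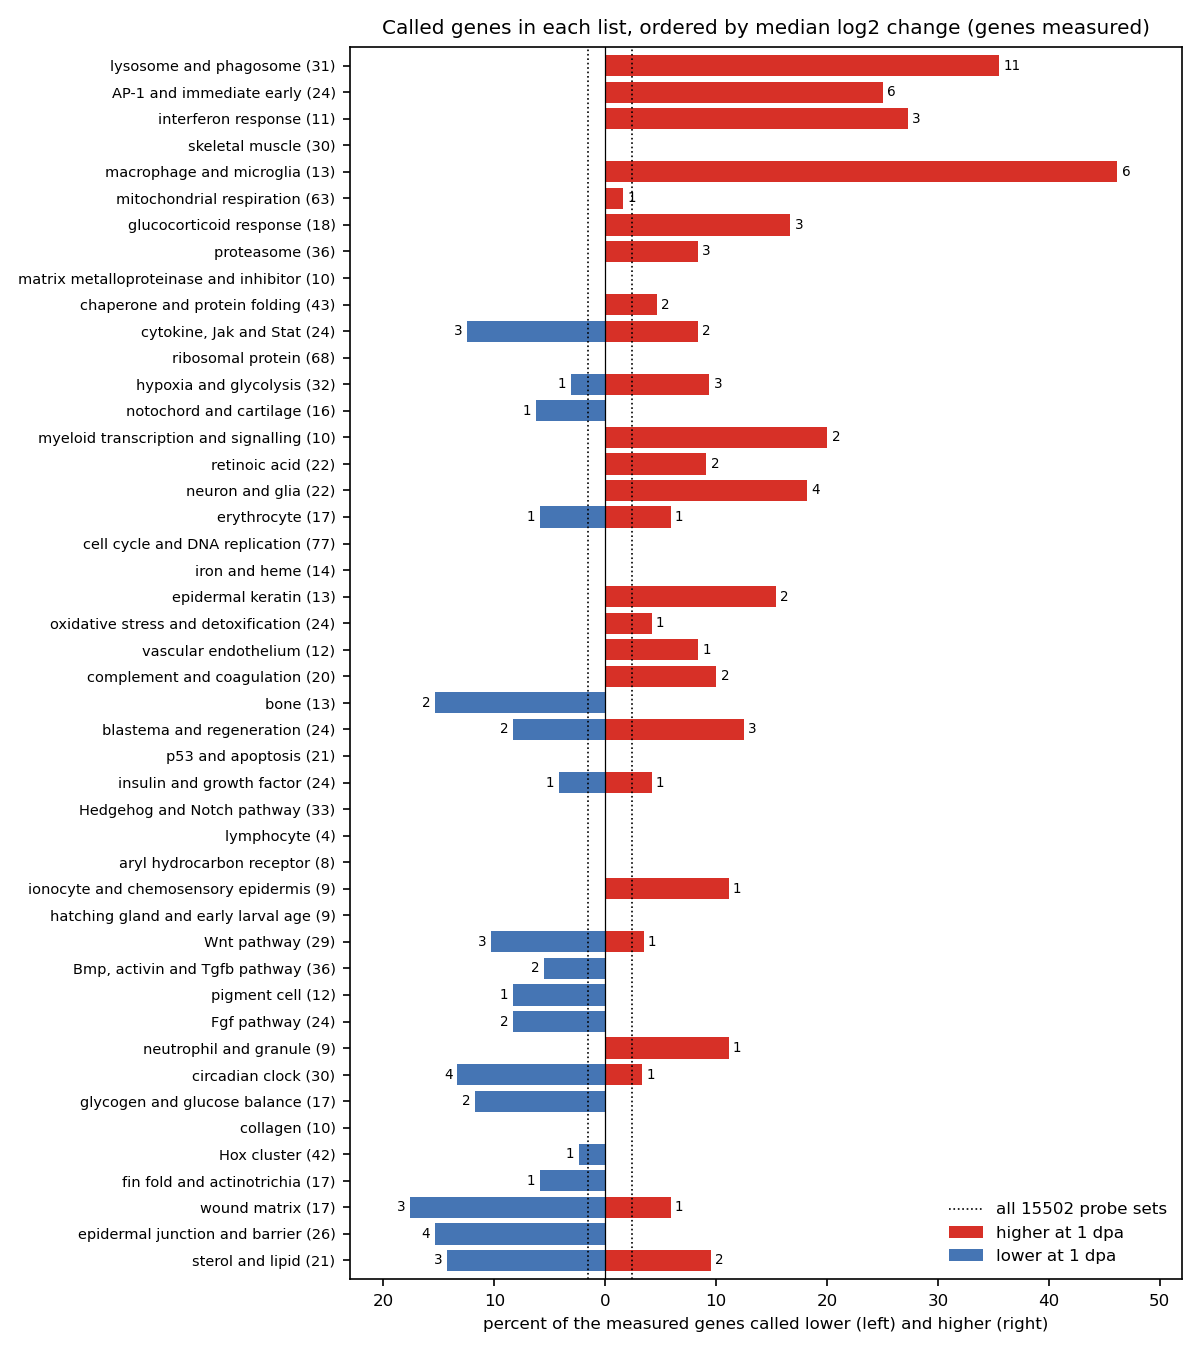
Percent of the measured genes of each of 46 lists that were called higher (red, right) or lower (blue, left) at 1 dpa, with the number of genes beside each bar and dotted lines at the shares over all 15502 probe sets, 2.43% and 1.58%; lists are ordered by median log2 change. The macrophage bar is the longest, with 6 of 13 genes, followed by lysosome with 11 of 31, and the sterol, epidermal junction and wound matrix lists lie at the bottom.

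Epidermal genes moved both ways. Of 26 epidermal junction and barrier genes 4 fell and none rose, with a median of −0.46 and 21 of 26 changes not above 0. The plakin genes evplb and ppl, whose envoplakin and periplakin products link keratin to the cell cortex in outer epithelium, both fell: evplb had levels of 1.65, 1.47 and 1.54 in the unamputated arrays and −0.37, −0.69 and −0.85 at 1 dpa, a change of −2.19 ± 0.24 (adjusted p = 0.00037), and ppl had levels of 1.04, 0.98 and 1.18 in the unamputated arrays and −0.02, −0.21 and −0.15 at 1 dpa, a change of −1.2 ± 0.11 (adjusted p = 0.00013). The groups were wide apart for both. The annexin gene anxa1c had levels of 2.06, 1.98 and 2.23 in the unamputated arrays and 0.53, 0.00 and −0.09 at 1 dpa, a change of −1.95 ± 0.22 (adjusted p = 0.00038), and agr1, of the disulfide isomerase family, changed by −1.26 ± 0.20 (adjusted p = 0.0022). The general epidermal genes were not called: tp63 changed by −0.49 ± 0.16 (adjusted p = 0.064), cdh1 by −0.33 ± 0.16 (adjusted p = 0.22) and krt4 by −0.29 ± 0.13 (adjusted p = 0.2). The 6 epidermis markers averaged 0.10 to 0.29 in unamputated fin and −0.24 to 0.06 at 1 dpa. Of 13 keratin genes krt15 and krt17 rose, krt15 from levels of −2.95, −2.96 and −3.15 to 0.68, −0.50 and −0.76 (2.83 ± 0.32, adjusted p = 0.00045), and krt17 by 1.07 ± 0.28 (adjusted p = 0.03). Unlike in the phagocyte genes, 1 dpa replicate 1 was the highest array for krt15 and krt17. The rise of krt17 ended without any of 5 arrays (changes 0.96 to 1.17, highest adjusted p = 0.094). The ammonium transporter gene rhbg, of the ionocyte list, rose by 1.83 ± 0.41 (adjusted p = 0.014), and without unamputated replicate 2 the adjusted p was 0.059. The calpain gene capn9, singled out after its values were seen, had levels of 1.43, 1.34 and 1.41 in the unamputated arrays and −0.12, −0.14 and −0.30 at 1 dpa, a change of −1.58 ± 0.15 (adjusted p = 0.00017).

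In the wound matrix list 1 of 17 genes rose and 3 fell, with a median of −0.42. The fibronectin gene fn1b had levels of −1.76, −2.12 and −1.33 in the unamputated arrays and 0.16, 0.64 and 0.91 at 1 dpa, a change of 2.30 ± 0.24 (adjusted p = 0.00027). Its paralogue fn1a changed by −0.47 ± 0.14 (adjusted p = 0.054), the opposite sign to fn1b. The laminin chain genes lama5 and lamc1, of the epidermal basement membrane, fell: lama5 had levels of 0.82, 0.83 and 0.82 in the unamputated arrays and 0.00, −0.62 and −0.41 at 1 dpa, a change of −1.17 ± 0.16 (adjusted p = 0.00097), and lamc1 changed by −1.13 ± 0.15 (adjusted p = 0.00082). Without 1 dpa replicate 3 the change of lamc1 was −0.96, under the 2-fold limit. The phosphoprotein gene spp1, osteopontin, had levels of 0.00, 0.55 and 0.16 in the unamputated arrays and −1.18, −1.05 and −1.13 at 1 dpa, a change of −1.35 ± 0.13 (adjusted p = 0.00017). For tncb, a tenascin, the change was −0.95 ± 0.24 (adjusted p = 0.025). None of 10 metalloproteinase and inhibitor genes was called by limma, with 1 at an unadjusted p under 0.05: mmp9 had levels of 0.80, −0.69 and 0.18 in the unamputated arrays and −0.73, 1.14 and 0.84 at 1 dpa, a change of 0.32 ± 0.50 (adjusted p = 0.78), and mmp13a changed by 0.40 ± 0.64 (adjusted p = 0.79), both with overlapping groups. None of 10 collagen genes was called (5 at an unadjusted p under 0.05, and 2 falls without 1 dpa replicate 1), with col1a1a at −0.23 ± 0.08 (adjusted p = 0.097) and col1a2 at −0.21 ± 0.11 (adjusted p = 0.26).

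Genes of the fin fold itself had mostly small changes below 0. Of 17 fin fold and actinotrichia genes, 16 had changes not above 0 and 1 fell, the homeobox gene dlx2b at −1.13 ± 0.26 (adjusted p = 0.015). The actinodin genes and1 and and2, which build the fibres that stiffen the fold, changed by −0.29 ± 0.10 (adjusted p = 0.089) and −0.40 ± 0.12 (adjusted p = 0.045). For and2 the adjusted p passed the threshold while the size stayed under 2-fold. In the Hox list hoxc6a was the 1 fall of 42 genes, at −1.41 ± 0.27 (adjusted p = 0.0068). The Hox falls became 2 without unamputated replicate 1 or 1 dpa replicate 1, and 4 without 1 dpa replicate 2. The call of dlx2b ended without any of 3 arrays (changes −1.38 to −0.98, highest adjusted p = 0.059). The falls of the fin fold list were 3 without 1 dpa replicate 1, 0 without unamputated replicate 1 or 1 dpa replicate 3, and 2 with the replicate block. The 4 fin fold mesenchyme markers averaged 0.01 to 0.13 in unamputated fin and −0.53 to −0.22 at 1 dpa, without overlap. The surface gene thy1, singled out after its values were seen, had levels of 0.64, 0.37 and 0.46 in the unamputated arrays and −0.55, −1.13 and −0.89 at 1 dpa, a change of −1.35 ± 0.16 (adjusted p = 0.00046). In the bone list spp1 and bmp2b fell out of 13, while sp7, the osteoblast regulator, changed by −0.01 ± 0.13 (adjusted p = 0.98).

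The embryonic beta globin genes hbbe2 and hbbe3 went in opposite directions. The beta globin gene hbbe2 had levels of 2.37, 2.35 and 2.21 in the unamputated arrays and 5.33, 5.59 and 5.44 at 1 dpa, a change of 3.14 ± 0.26 (adjusted p = 8.1e-05), an 8.81-fold rise, while hbbe3 fell by 33.6-fold. Each group was narrow for hbbe2, and for hbbe3 the 1 dpa arrays spread from −1.28 to 2.09. The alpha globin gene hbae3 had levels of 4.70, 4.96 and 4.71 in the unamputated arrays and 5.98, 6.54 and 6.61 at 1 dpa, a change of 1.58 ± 0.68 (adjusted p = 0.16) that was not called, while its other probe set rose by 2.09 (adjusted p = 0.00079). The erythrocyte anion exchanger gene slc4a1a changed by −0.42 ± 0.47 (adjusted p = 0.66) with overlapping groups. Probe sets of globins with near-identical sequence may share signal. The 4 erythrocyte markers averaged 4.09 to 4.27 in unamputated fin and 3.17 to 4.76 at 1 dpa, so the groups overlapped, and of 17 erythrocyte genes, each read from 1 probe set, hbbe2 and hbbe3 were called. The 1 rise of that list became 2 without unamputated replicate 2 and 3 without 1 dpa replicate 1, and 2 or 3 with the 6 arrays alone, another choice of probe set, 0.5 added, the floor or the filter.

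Of 22 neuron and glia genes 4 rose and none fell. The brain fatty acid binding protein gene fabp7a, of radial glia, had levels of 0.46, 0.00 and −0.01 in the unamputated arrays and 2.39, 2.39 and 2.08 at 1 dpa, a change of 2.14 ± 0.14 (adjusted p = 1.7e-05). The glial genes gfap and s100b changed by 1.1 ± 0.16 (adjusted p = 0.0018) and 1.14 ± 0.18 (adjusted p = 0.0023), and snap25a, a synaptic vesicle fusion protein, by 1.31 ± 0.31 (adjusted p = 0.018). The groups were apart in all 4 genes. Outside this list, the glutamate transporter gene slc1a2b, of astroglia in vertebrates, rose. Its levels were 1.3, 2.13 and 1.00 in the unamputated arrays and 4.32, 4.59 and 4.39 at 1 dpa, a change of 2.96 ± 0.23 (adjusted p = 6.7e-05). Also outside the list, the contactin gene cntn5 and the GABA transporter gene slc6a11a fell, as given above. The neuronal gene elavl3 changed by −0.71 ± 0.44 (adjusted p = 0.34), the myelin gene mbpa by 0.37 ± 0.32 (adjusted p = 0.53) and the neural crest gene sox10 by −0.03 ± 0.13 (adjusted p = 0.93), all with overlapping groups. The 4 neuron and glia markers averaged 0.47 to 0.69 in unamputated fin and 0.40 to 0.64 at 1 dpa. The count of 4 fell to 2 without unamputated replicate 3 and to 1 without 1 dpa replicate 2. Changes without 1 array ran over gfap 0.92 to 1.22 (highest adjusted p = 0.009, 2 of 6 arrays), s100b 0.97 to 1.32 (highest adjusted p = 0.0093, 2 of 6 arrays) and snap25a 1.24 to 1.43 (highest adjusted p = 0.065, 4 of 6 arrays).

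No skeletal muscle gene was called by limma out of 30, with 6 at an unadjusted p under 0.05 and a list median of 0.47: acta1a changed by 0.17 ± 0.30 (adjusted p = 0.81), ckma by 0.83 ± 0.42 (adjusted p = 0.24) and mylpfa by 1.24 ± 0.73 (adjusted p = 0.33). The 5 muscle markers averaged 4.79 to 6.45 in unamputated fin and 5.64 to 7.23 at 1 dpa, with overlap. The notochord and cartilage list had 1 fall of 16, the matrilin gene matn4 at −1.07 ± 0.19 (adjusted p = 0.004), which was under 2-fold without unamputated replicate 3. The notochord markers averaged 4.50 to 4.92 in unamputated fin and 5.18 to 5.29 at 1 dpa, without overlap, while col2a1a changed by 0.82 ± 0.43 (adjusted p = 0.27) and tbxta by 0.66 ± 0.26 (adjusted p = 0.12), neither called. Of genes singled out after their values were seen, the slow and cardiac muscle myosin gene myh7 had levels of 3.33, 4.09 and 3.73 in the unamputated arrays and 6.25, 6.58 and 6.08 at 1 dpa, a change of 2.59 ± 0.23 (adjusted p = 0.00014), and the parvalbumin gene pvalb4 changed by 2.60 ± 0.54 (adjusted p = 0.0093). The part of tissue makeup in these rises was not tested. Of 12 endothelial genes plvapb, of fenestrated vessels, rose by 1.21 ± 0.24 (adjusted p = 0.0079), with 0.91 and no call without 1 dpa replicate 2, while the receptor gene kdrl changed by 0.04 ± 0.28 (adjusted p = 0.96). Of 12 pigment genes gch2, an enzyme of pteridine synthesis in yellow pigment cells, fell, with levels of 2.28, 2.85 and 2.05 in the unamputated arrays and 0.55, 1.42 and 0.39 at 1 dpa and a change of −1.61 ± 0.33 (adjusted p = 0.0089), and another probe set of it gave −0.59.

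Several light- and clock-controlled genes fell. Of 30 clock genes 4 fell and 1 rose. The gene cry5, of the photolyase and cryptochrome family, had levels of 0.69, 1.34 and 1.22 in the unamputated arrays and −0.41, −1.23 and −1.69 at 1 dpa, a change of −2.19 ± 0.36 (adjusted p = 0.003), and ddb2, a light-induced DNA damage recognition gene in zebrafish, had levels of −0.07, −0.06 and 0.00 in the unamputated arrays and −0.48, −2.38 and −2.11 at 1 dpa, a change of −1.61 ± 0.40 (adjusted p = 0.023). In ddb2, 1 dpa replicate 1 was close to the unamputated arrays and the other two were far below. The cryptochrome genes cry1a and cry2 changed by −1.52 ± 0.45 (adjusted p = 0.045) and −1.04 ± 0.18 (adjusted p = 0.0038), and the repressor gene bhlhe41 rose by 1.02 ± 0.21 (adjusted p = 0.0084). Another probe set of cry2 changed by −0.39 ± 0.35 (adjusted p = 0.56) with overlapping groups, and another of cry5 by −1.91, which was called. The clock output gene tefa changed by −1.32 ± 0.44 (adjusted p = 0.074) with overlapping groups, and per2 by −0.74 ± 0.30 (adjusted p = 0.14). The hour of collection is not given in the sources used here, and its part was not tested. The 4 falls came to 2 without unamputated replicate 1 or 2 or 1 dpa replicate 2 or 3, and to 1 without unamputated replicate 3. Changes without 1 array ran over cry1a −1.96 to −1.27 (highest adjusted p = 0.16, 5 of 6 arrays), ddb2 −2.20 to −1.25 (highest adjusted p = 0.088, 5 of 6 arrays), cry2 −1.09 to −0.99 (highest adjusted p = 0.018, 1 of 6 arrays) and bhlhe41 0.84 to 1.18 (highest adjusted p = 0.039, 2 of 6 arrays).

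In the sterol and lipid list 3 of 21 genes fell and 2 rose, with a median of −0.48. The falls were in cholesterol synthesis: hmgcs1, the synthase of its early steps, had levels of 1.56, 1.49 and 1.81 in the unamputated arrays and 0.33, 0.00 and 0.28 at 1 dpa, a change of −1.42 ± 0.22 (adjusted p = 0.0022), and dhcr7, of the last step, had levels of 1.18, 1.26 and 1.2 in the unamputated arrays and 0.01, −0.12 and −0.25 at 1 dpa, a change of −1.33 ± 0.12 (adjusted p = 0.00013). The feedback regulator gene insig1 changed by −1.93 ± 0.27 (adjusted p = 0.0012). The groups of all 3 were apart, and mvk, msmo1 and nsdhl of the same pathway changed by −0.91, −1.06 and −0.91 without a call. The rises, in fabp7a and apoeb, were in lipid carriers rather than in synthesis. Without 1 dpa replicate 1, 5 genes of the list fell. Of 17 glycogen and glucose genes 2 fell and none rose. The glycogen-targeting phosphatase subunit gene ppp1r3b had levels of 3.10, 3.04 and 2.79 in the unamputated arrays and −0.50, 0.03 and 0.00 at 1 dpa, a change of −3.13 ± 0.21 (adjusted p = 2.1e-05), and txnipa, a glucose-responsive thioredoxin inhibitor, changed by −1.24 ± 0.22 (adjusted p = 0.0043).

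Genes of growth and housekeeping were largely uncalled. None of 77 cell cycle and DNA replication genes was called at 2-fold and an adjusted p under 0.05 by limma, with 15 at an unadjusted p under 0.05 and a median of 0.13. Levels of the replication clamp gene pcna were 0.26, 0.20 and 0.05 in the unamputated arrays and 0.62, 0.52 and 0.73 at 1 dpa, a change of 0.46 ± 0.14 (adjusted p = 0.057), and mcm5, of the replicative helicase, changed by −0.03 ± 0.14 (adjusted p = 0.94). Mitotic genes had wider errors, with ccnb1 at 0.45 ± 0.35 (adjusted p = 0.48) and cdk1 at 0.50 ± 0.39 (adjusted p = 0.47). Every one of 68 ribosomal protein genes had a change above 0, with a median of 0.23, none called and 21 at an unadjusted p under 0.05. Mitochondrial respiration genes had a median of 0.37, with 59 of 63 above 0. The median change of all genes was −0.01. The 9 hybridisation control probe sets averaged 0.16 to 0.46 in the unamputated arrays and −0.04 to 0.18 at 1 dpa. The part of such array differences in these small changes was not tested. None of 21 p53 and apoptosis genes was called, with ccng1 at −0.09 ± 0.12 (adjusted p = 0.72), nor any of 8 aryl hydrocarbon receptor genes, with cyp1a at −0.25 ± 0.86 (adjusted p = 0.92) and ahr2 at 0.49 ± 0.13 (adjusted p = 0.033), nor any of 9 hatching gland and early age genes. The p53, aryl hydrocarbon receptor and hatching gland lists held 10, 3 and 2 genes at an unadjusted p under 0.05. Over all probe sets, 4145 had an unadjusted p under 0.05, so values in these lists that miss the adjusted threshold are not shown to be equal.

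The levels at 2 and 3 dpa set the 1 dpa values in order. All 4 larval groups share the fit, and changes from unamputated fin share its 3 arrays, so the values are given side by side, and the test is that of 2 dpa against 1 dpa. It uses the 1 dpa arrays again, on which most named genes were chosen. For those genes a return toward the unamputated level is favoured by the choice, and their p-values do not allow for it. In that test 558 probe sets were higher at 2 dpa (3.6%) and 827 lower (5.33%), 8.93% in all. The 5 muscle markers averaged 0.22 to 0.91 at 2 dpa and −0.18 to 0.39 at 3 dpa, against at least 4.79 in each array of unamputated and 1 dpa fin, and the notochord markers averaged −0.39 to 0.77 and −0.41 to −0.28. The 4 erythrocyte markers averaged −0.47 to −0.35 and −1.33 to 0.13, against at least 3.17 in each earlier array. These markers were far lower in the later fins, and their part in the values of 2 against 1 dpa was not tested. The larvae at 2 and 3 dpa also had DMSO.

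Some rises were higher still at 2 dpa. The gene aldh1a2 was at 2.58, 2.02 and 2.44 at 2 dpa, a further change of 2.07 ± 0.37 (adjusted p = 0.0022), and its change from unamputated fin was 5.63 at 2 dpa and 4.70 at 3 dpa. The change from 1 to 2 dpa was 1.51 ± 0.29 (adjusted p = 0.0038) for socs3a, 1.24 ± 0.39 (adjusted p = 0.04) for junba and 1.95 ± 0.24 (adjusted p = 0.00024) for dkk3b. The proteasome activator gene psme1 changed from unamputated fin by 2.01, 2.78 and 2.68 over the 3 days. For others no call was made between 1 and 2 dpa, as for slc7a7 at 0.15 ± 0.45 (adjusted p = 0.89), fosl2 at 0.05 ± 0.36 (adjusted p = 0.96) and cd68 at 0.22 ± 0.37 (adjusted p = 0.76). Some named plasma protein and phagocyte genes were lower at 2 dpa than at 1 dpa: tfa changed by −2.05 ± 0.43 (adjusted p = 0.006), grna by −1.40 ± 0.36 (adjusted p = 0.015), runx3 by −1.59 ± 0.39 (adjusted p = 0.013) and marco by −1.11 ± 0.33 (adjusted p = 0.031), and their changes from unamputated fin at 3 dpa were 1.45, 2.28, 1.52 and 1.87. Of 13 macrophage genes 1 was lower and 1 higher, and of 31 lysosome genes 1 and none. Of 10 myeloid regulators 2 were lower and 2 higher, and of 20 complement and coagulation genes 3 and 1. Over all probe sets 5.33% were lower and 3.6% higher. List medians of the change from unamputated fin at 1 and 2 dpa were 0.38 and 0.71 for macrophage genes. They were 0.77 and 0.97 for lysosome genes and 0.20 and 0.12 for myeloid regulators.

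Another set was highest at 1 dpa and below the unamputated level afterwards. For slc1a2b levels at 2 dpa were −0.76, −1.08 and −1.02, a change from 1 dpa of −5.39 ± 0.23 (adjusted p = 2.3e-07), and −2.43 from unamputated fin. The same differences were −5.51 and −2.37 for hbbe2, −2.98 and −0.84 for fabp7a, −2.59 and −1.49 for gfap, and −4.50 and −3.29 for plvapb. Genes singled out after their values were seen had the same course, such as myh7 (−6.36 and −3.78), oc90, an ear otoconin (−4.93 and −3.30), the neuronal gene islr2 (−4.19 and −1.97), the water channel gene aqp8a.1 (−6.48 and −4.69) and wnt4b (−3.04 and −1.28). They were picked with these values known, so the likeness adds no support. Their rises at 1 dpa were 1.63 ± 0.28 (adjusted p = 0.0036) for oc90, 2.22 ± 0.54 (adjusted p = 0.021) for islr2, 1.79 ± 0.49 (adjusted p = 0.034) for aqp8a.1 and 1.77 ± 0.17 (adjusted p = 0.00015) for wnt4b. The levels of these genes fell after 1 dpa together with the muscle, notochord and erythrocyte markers. Changes at 1 dpa without 1 array ran over islr2 1.73 to 2.80 (highest adjusted p = 0.083, 4 of 6 arrays) and aqp8a.1 1.52 to 2.02 (highest adjusted p = 0.12, 5 of 6 arrays).

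A group of signalling genes was lowest at 1 dpa. Levels of fgf8a at 2 dpa were 2.88, 2.79 and 2.77, a change from 1 dpa of 2.34 ± 0.42 (adjusted p = 0.0023), which left 0.50 from unamputated fin. From 1 to 2 dpa bmp4 changed by 1.78 ± 0.29 (adjusted p = 0.0013), bmp2b by 1.88 ± 0.37 (adjusted p = 0.0042), wnt5b by 1.71 ± 0.34 (adjusted p = 0.004), dkk1b by 1.41 ± 0.32 (adjusted p = 0.0086) and msx1b by 1.41 ± 0.19 (adjusted p = 0.00043). The receptor genes cxcr4a and cxcr4b changed by 1.62 ± 0.26 (adjusted p = 0.0012) and 1.41 ± 0.12 (adjusted p = 2.4e-05), and ptgs2a by 1.72 ± 0.18 (adjusted p = 8.6e-05). All of these were called rises, and their levels at 2 dpa differed from unamputated fin by 0.16 for dkk1b, 0.16 for msx1b, 0.05 for cxcr4b and 0.66 for ptgs2a. The Fgf list had 7 of 24 genes higher at 2 than at 1 dpa and none lower, and the fin fold list 8 of 17 and none. In the AP-1 list 11 of 24 genes were higher at 2 dpa than at 1 dpa, among them fosab at 2.01 ± 0.43 (adjusted p = 0.0067), whose chosen probe set had not been called at 1 dpa.

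Other falls lasted through the later days. Changes from unamputated fin at 1, 2 and 3 dpa were −3.13, −3.17 and −3.45 for ppp1r3b, −2.79, −3.42 and −3.67 for naalad2, −2.19, −2.75 and −2.68 for evplb, and −5.07, −6.46 and −6.12 for hbbe3. The other erythrocyte markers, hbbe2, hbae3 and slc4a1a, were by 2 dpa also below unamputated fin, at −2.37, −4.48 and −5.01. The part of erythrocyte content in the later hbbe3 values was not tested. Between 1 and 2 dpa the change was −0.03 ± 0.21 (adjusted p = 0.96) for ppp1r3b and −0.56 ± 0.24 (adjusted p = 0.12) for evplb. The cell cycle list, without a call at 1 dpa, had 51 of 77 genes lower at 2 than at 1 dpa, with pcna at −2.04 ± 0.14 (adjusted p = 4.5e-06) and mcm5 at −1.96 ± 0.14 (adjusted p = 6.9e-06).

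**Figure D4:**
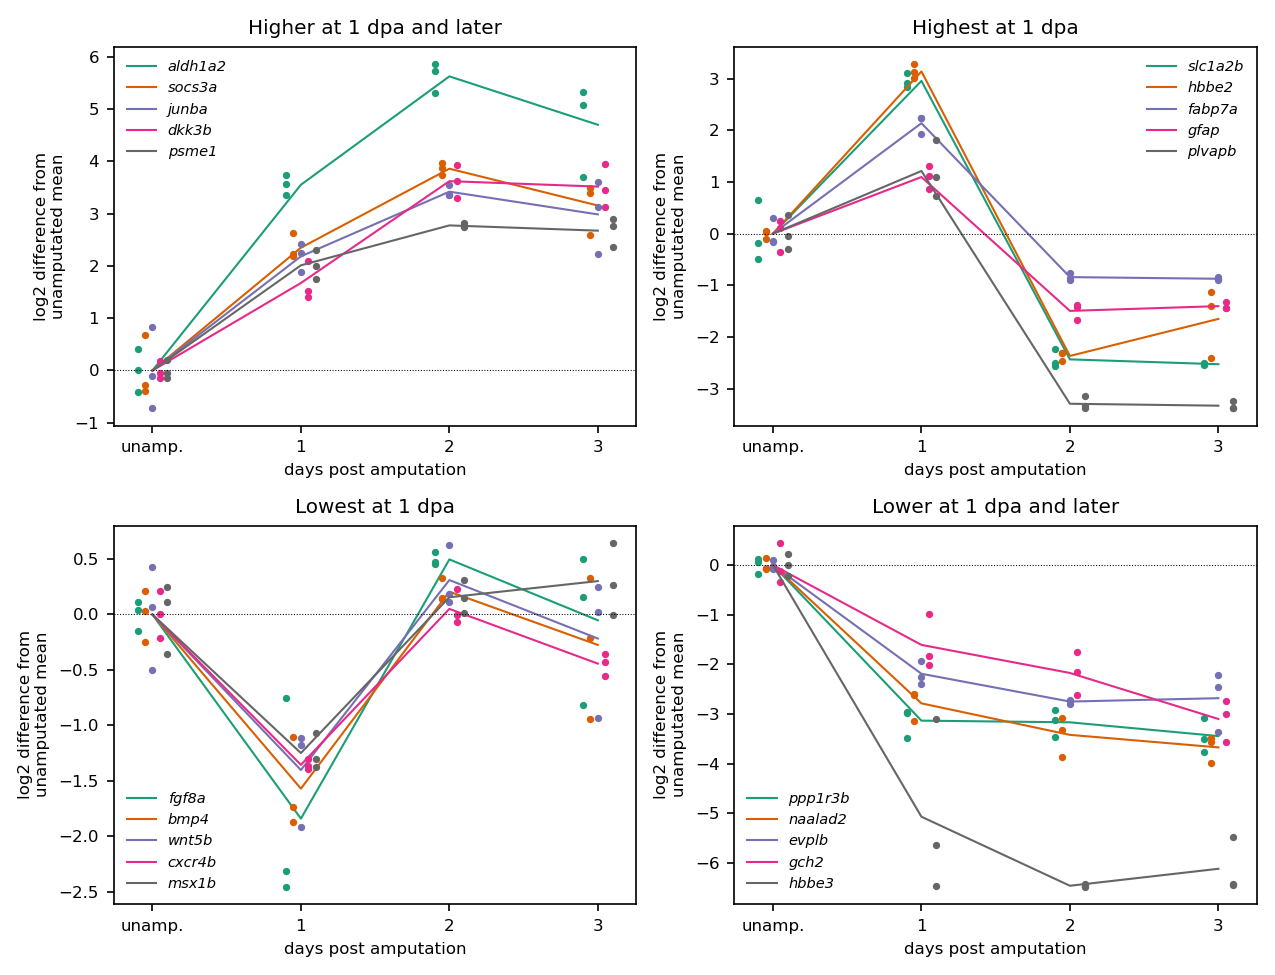
Log2 difference from the unamputated mean for named genes over the larval groups (unamputated, 1, 2 and 3 dpa), in panels by course, with lines through group means and points for the 3 arrays of each group. The genes were picked after their values were seen to show the courses: aldh1a2 rises to 3.55 at 1 dpa and 5.63 at 2 dpa, slc1a2b passes from 2.96 to −2.43, fgf8a returns from −1.84 to 0.50, and ppp1r3b reads −3.13, −3.17 and −3.45.

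Set against adult fin at 1 dpa, the larval falls overlapped in part, while larval rises were adult falls as often as adult rises. In adults 1345 probe sets rose (8.68%) and 1147 fell (7.4%) by the same rule on the 12 adult arrays. Of the larval rises 54 were adult rises too, 14.3% of the larval and 4.01% of the adult ones, and 54 were adult falls. Of the larval falls 69 were adult falls, 28.2% of the larval and 6.02% of the adult ones, and 18 were adult rises. A test of the difference between the adult and larval change over all 24 arrays called 1383 probe sets with the adult change higher (8.92%) and 1396 with it lower (9.01%), and the share higher, 49.8%, was 61.6% with arrays centred on their medians. Age, kit, RNA input, sex and vehicle differ together with stage.

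The rise of aldh1a2 was 3.63 ± 0.25 in adults and 3.55 ± 0.37 in larvae, and the difference was 0.07 ± 0.47 (adjusted p = 0.92). Differences for slc7a7, socs3b, fosl2, igfbp1a and dkk3b were −0.14 ± 0.59, −0.15 ± 0.41, 0.30 ± 0.55, 0.27 ± 0.65 and 0.09 ± 0.46, none of them called. Among falls, rcan3 changed by −3.04 ± 0.82 in adults, slc6a11a by −2.06 ± 0.56 and cry5 by −2.77 ± 0.97, and the differences from larvae were −0.46 ± 0.86, 0.41 ± 0.60 and −0.58 ± 1.07, not called and with wide errors.

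Larval rises without a like adult change were tested as differences. The gene socs3a changed by −0.87 in adults, a difference of −3.22 ± 0.59 (adjusted p = 0.00061), and cox4i2 by −2.22, a difference of −4.01 ± 0.47 (adjusted p = 9.8e-06). The adult change minus the larval one was −2.37 ± 0.58 (adjusted p = 0.0051) for marco, −1.59 ± 0.27 (adjusted p = 0.00034) for psme1, −2.16 ± 0.41 (adjusted p = 0.00081) for b2m and −3.11 ± 0.52 (adjusted p = 0.00028) for cd68. These genes were chosen for their larval change, so a smaller adult one is favoured by the choice. In adults 7 of 31 lysosome genes rose and none fell. Of 13 macrophage genes 5 rose in adults and 1 fell, against 8.68% and 7.4% of all probe sets. In the lysosome list the adult change was lower than the larval one for 7 of 31 genes and higher for none. In the macrophage list it was lower for 4 of 13 and higher for 2. The other way, the adult change exceeded the larval one in 48 of 77 cell cycle genes, of which 55 rose in adults and none in larvae. It did so in mdka (3.43 ± 0.20 (adjusted p = 4e-09)), lef1 (3.10 ± 0.53 (adjusted p = 0.00032)), fn1a (3.61 ± 0.24 (adjusted p = 2.7e-08)), tncb (5.08 ± 1.02 (adjusted p = 0.0012)), inhbaa (4.66 ± 0.39 (adjusted p = 3.1e-07)), mmp13a (3.07 ± 0.91 (adjusted p = 0.016)) and spp1 (4.08 ± 0.77 (adjusted p = 0.00079)). In spp1 and inhbaa the adult change was 2.73 and 3.69 and the larval one −1.35 and −0.97. Another probe set of tncb gave a difference of −0.28 (adjusted p = 0.27), which was not called. Others of fn1a gave 1.07, not called, and 2.08, called, and another of inhbaa gave 4.60, called.

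**Figure D5:**
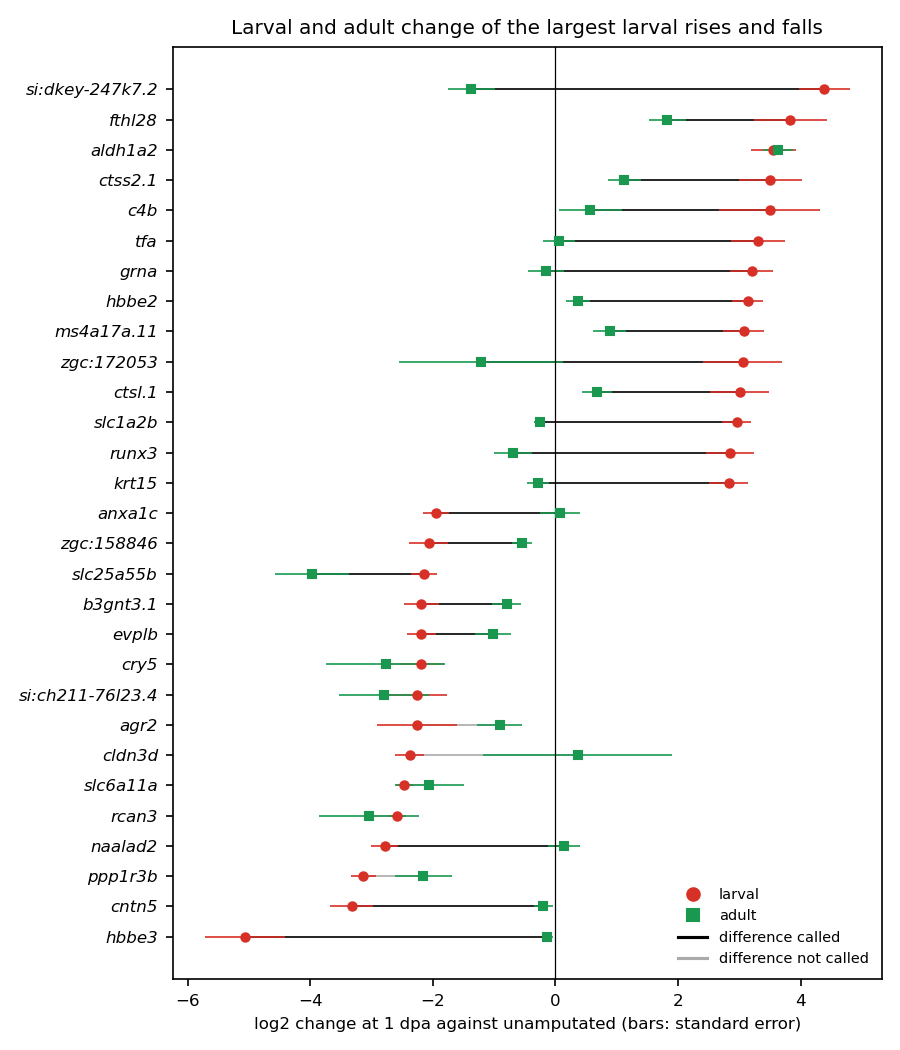
Log2 change at 1 dpa against unamputated fin for 29 genes with the largest larval rises and falls, in larvae (red circles) and adults (green squares), with bars for standard errors and the joining line black where the difference was called. The genes were chosen for their larval change, which draws the larval points outward; aldh1a2 has nearly coincident points at 3.55 and 3.63, and hbbe3 the points −5.07 and −0.13.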

How the data were processed

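RNA of 24 caudal fin samples was hybridised to Affymetrix zebrafish arrays; the 6 arrays of larval unamputated and 1 dpa fin are the subject, with 18 used for the spread and for comparison. The deposited values are a linear ratio of each probe set to its own reference; the authors used GCRMA, named without a version in the submitters' processing notes, and the step that made the ratio is not given in the sources used here. Of 15617 probe sets 115 controls were left out; 10795 of 15502 matched 1 symbol in the platform annotation (135 several, 4572 none), giving 8793 genes, with symbols updated through RefSeq tables. Ratios were log2 transformed without further normalization and fitted with limma 3.58.1 (R 4.3.3, lmFit and eBayes, group means) on the 12 larval arrays, the 12 adult arrays, or all 24 for the difference between stages. In data simulated on the larval comparison, 92% of probe sets changed by 1.5 on the log2 scale and 100% of those changed by 4 were called among 15502, with 1 false call. The simulated noise was normal and independent between probe sets, with 200 probe sets changed and no effect shared within an array. It therefore checks the fitting steps and does not give the error rate of the calls in the real arrays. A gene with several probe sets was read from 1 chosen by its identifier's suffix, without regard to values. Named genes were the 15 largest rises and 15 largest falls without overlap between groups (1 rise is not reported here), up to 6 called members of each of 46 lists, and key members of lists whatever their value; others are marked where named. The members, lists and tests were chosen with earlier results of these data known. The labels state 3 pools a group; where they do not say that pools came from separate clutches, p-values measure only the spread between these pools. Alternatives tried were normalization, pseudocount, floor, filter, prior, fold limit, probe set choice, arrays in the fit, a replicate block and leaving out each array. No sequences are shown, since none of the tables used here holds them.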

Additional observations from a re-analysis of the deposited data

Results flagged for a closer look

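For 21 of 29 genes with the largest larval changes, the adult change at 1 dpa differed from the larval one by at least 2-fold at a limma adjusted p under 0.05, over 24 arrays. The genes were chosen for a large larval change, so a smaller adult one is favoured by the choice, and 17.9% of all probe sets differed by the same rule. Among larval rises, the adult minus the larval log2 change was −5.76 for si:dkey-247k7.2, −2.0 for fthl28, −2.38 for ctss2.1, −2.93 for c4b, −3.24 for tfa, −3.35 for grna, −2.77 for hbbe2, −2.18 for ms4a17a.11, −4.27 for zgc:172053, −2.33 for ctsl.1, −3.21 for slc1a2b, −3.54 for runx3 and −3.11 for krt15. Among larval falls it was 4.94 for hbbe3, 3.12 for cntn5, 2.92 for naalad2, 1.18 for evplb, 1.39 for b3gnt3.1, −1.82 for slc25a55b, 1.52 for zgc:158846 and 2.02 for anxa1c. In slc25a55b the adult fall was the larger, at −3.97 against −2.15. Stage, kit, RNA input, sex and vehicle cannot be told apart in these differences.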

How the results depend on the processing

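Of 117 called genes named, 43 kept direction and call under each alternative that measured them, of 19 run; 52 of the 117 had no value under the filter on low values, and 30 of the 65 with a value in all 19 kept direction and call. The 622 calls became 201 (113 higher, 88 lower) with 0.5 added before log2, 393 (164 higher, 229 lower) when probe sets needed a ratio of at least 1 in 3 arrays, and 2097 (1108 higher, 989 lower) with no minimum fold. The share of rises among calls thus went from 60.6% to 41.7% under that filter, which removes probe sets low in most arrays. Leaving out 1 array gave 513 to 693 calls (312 to 421 higher, 189 to 272 lower). The 1385 differences of 2 from 1 dpa became 636 with 0.5 added and 3629 with no minimum fold (1236 to 1628 with 1 array left out). The 2779 differences of adult from larval change became 1360 and 4816 (2458 to 3289), and 61.6% of them had the adult change higher with arrays centred on their medians, against 49.8%. With quantile normalization klf2a read −0.018, and the cause was not tested. With the highest-mean probe set cebpd read −0.33, which is the value of its other probe set given above. The AP-1 rises fell from 6 to 1 under quantile normalization and to 0 with 0.5 added, and the lysosome rises from 11 to 5 with 0.5 added. The filter left 0 of these AP-1 rises and 3 of these lysosome rises, because it removed the probe sets of the others. All 65 called named genes with a value under the filter kept direction and call there. The filter leaves the change of a kept probe set as it was, so the direction was fixed and the call nearly so. Dropping the minimum fold cannot end a call. With 0.5 added the hypoxia and proteasome lists each lost their 3 rises and the wound matrix list its 3 falls. Of lists without a call, 1 rise appeared without single arrays in the metalloproteinase, skeletal muscle, p53 and iron lists, and 1 fall in the Hedgehog and Notch list. Correlations of deviations between arrays of the same title number were 0.03, 0.18 and 0.13. Other pairs were not computed, so whether the numbers pair arrays cannot be judged. With the replicate block 633 were called, and 629 on the 6 arrays alone with it. Leaving out the larval 3 dpa arrays was chosen after seeing the data. Nothing in the arrays gives signal over background, so limits for dim probe sets are unknown.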
